A study of Mus musculus with 15 samples.

Results

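The 5 dopamine receptor genes of the mouse, Drd1, Drd2, Drd3, Drd4 and Drd5, were followed across the cell classes of the dorsal hippocampal formation (dHF) outside neurons of striatal type. They were taken by gene symbol from single-nuclei RNA-sequencing (snRNA-seq) count tables of 32285 genes. No threshold on a value was used, but earlier results of these data were known. Nuclei with at least 5 UMIs (unique molecular identifiers, 1 per captured RNA molecule) of Pde10a and at least 3 of Rarb, genes of striatal projection neurons, were set aside. They were 3239 of 123901 nuclei, of which 1822 lay in the striatal-type cluster and 1417 in other clusters. With the rest of the striatal-type cluster and all clusters under 50 nuclei also left out, 120524 nuclei in 30 classes remained.

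Every mouse was an adult female of the C57BL6/J strain, without a transgene or drug, and the labels give no age. Virgin nulliparous (NP) mice (n = 6) were never bred. Mice with control reproductive experience (control RE, n = 4) had been mated, given birth, nursed and weaned their pups. Mice with stress RE (n = 5) went through the same events and, late in the postpartum period, had little nesting material and were parted from their litters each day. Frozen micropunches were pooled within each mouse, and the nuclei included thalamic, habenular, choroid plexus and other cells from next to the dHF. Levels are given in CPM, the UMIs of a gene scaled to the total UMIs of the class in a mouse, and the mouse is the replicate.

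Each of the 15 libraries had between 5789 and 12738 barcodes, with 40602582 to 96211264 UMIs in all, and no pair of libraries shared more than 0.461% of the barcodes of the smaller one. The striatal-type cluster held 0 to 829 nuclei per mouse, with the most in stress RE mouse 75 (829), NP mouse 35 (431) and stress RE mouse 77 (245), and 7 mice had fewer than 5. Classes were named from marker genes, so that "granule" stands for granule-like nuclei and so on. Some clusters are called by leading genes or depth instead, also where these did not go against the list name. The Hs3st2 cluster fell under the subiculum list, with its marker Tshz2 among the leading genes. The shallow mixed cluster fell under the progenitor list (2.58), led by its marker Igfbpl1, and scored 2.70 on the granule list. The granule clusters had all 8 of 8 granule markers detected. The mossy cluster had 4 of 7 mossy markers detected and scored higher on the CA3 list than on its own, and it is read as mossy with that limit. The labels also give each mouse a batch number, without saying of which step, and batch 1 held no control RE mouse.

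Dopamine receptors are G protein-coupled receptors of 2 families. The D1-like receptors, encoded by Drd1 and Drd5, couple to stimulatory G proteins and raise cyclic AMP, and the D2-like receptors, encoded by Drd2, Drd3 and Drd4, couple to inhibitory G proteins and lower it. In the hippocampus, dopaminergic input is known for its part in plasticity and memory, hilar mossy cells are a known site of Drd2, and Drd5 is known from pyramidal neurons.

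In the GENCODE annotation of GRCm38, Drd1 spans chromosome 13, 54051183 to 54055705, on the minus strand, with 3 annotated exons, and Drd5 is a single-exon gene on chromosome 5, 38319367 to 38322518, on the plus strand. Drd2 spans chromosome 9, 49340627 to 49408177, Drd3 chromosome 16, 43754026 to 43822932, and Drd4 chromosome 7, 141292006 to 141296464, all on the plus strand, with 8, 8 and 4 exons. Drd5 is overlapped by an antisense transcript, Gm26560, and whether the counting used strand is not given in the sources used here. Gm26560 itself had 0.419 CPM in granule and 0.451 CPM in CA1 nuclei.

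Bases upstream of the annotated exons of Drd1, Drd5 and Drd2 are shown because the results on hippocampal neurons are mostly about these 3 receptors. Promoter activity was not measured. Each is 100 bases of RefSeq sequence on GRCm38.p6, written 5′ to 3′ on the strand of the gene, with the letters GGGCGG or CCGCCC (a GC box and its reverse complement) in capitals. They come from chr13:54055706-54055805, chr5:38319267-38319366 and chr9:49340303-49340402. The Drd1 and Drd5 windows were moved 47 and 142 bases upstream of the RefSeq start, to end where the GENCODE gene begins, and the Drd2 window ends at the RefSeq start, 224 bases before the GENCODE one.
Drd1: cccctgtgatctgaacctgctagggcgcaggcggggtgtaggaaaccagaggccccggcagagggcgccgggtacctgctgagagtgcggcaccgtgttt
Drd5: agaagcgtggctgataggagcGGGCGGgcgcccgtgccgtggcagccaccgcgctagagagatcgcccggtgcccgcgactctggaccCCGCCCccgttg
Drd2: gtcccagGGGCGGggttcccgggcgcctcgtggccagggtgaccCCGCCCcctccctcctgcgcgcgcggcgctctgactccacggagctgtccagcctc
The Drd5 and Drd2 windows each hold 2 copies and the Drd1 window 0, and 24.7% of 32851 windows of that length just before the RefSeq starts of all genes, none of them moved, hold at least 1. GC content is 67% for Drd1, 74% for Drd5 and 78% for Drd2, against a median of 55% over all windows.

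Oligodendrocytes were taken as the background class, and whether they express these receptors themselves was not tested. Their level, called the background level, is a stand-in for what free RNA in the suspension can leave in a class. Over 29852 oligodendrocyte nuclei it was 1.52 CPM for Drd1, 1.46 for Drd2, 0.184 for Drd3, 0.0246 for Drd4 and 0.676 for Drd5. For Drd1 it reached 7.28 CPM in stress RE mouse 75, the mouse with the most striatal-type nuclei. It lay between 0.209 and 1.21 CPM in the 7 mice with fewer than 5 such nuclei and between 0.171 and 7.28 in the other 8. For comparison, the striatal-type cluster had 100.3 CPM of Drd1, 270.0 of Drd2, 5.97 of Drd3, 0 of Drd4 and 0.373 of Drd5. A median oligodendrocyte nucleus had 2493 UMIs and a median granule nucleus 8601, and shares of nuclei are therefore also given at 1 depth. The oligodendrocyte level is not the background of every class. Of the 20 pairs of receptor and class that the test below called lower, 8 lay under the oligodendrocyte level beyond the counting interval. Examples are Drd1 in CA1 nuclei (0.281 CPM) and Drd2 in granule nuclei (0.320 CPM). Pairs not called lower could lie under that level in this way too, such as Drd1 in mossy nuclei (0.140 CPM, interval up to 0.781). A class of another depth that is above it, or not above it, was not tested against a background of its own.

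Each class was compared with the oligodendrocytes of the same mouse by a two-sided exact sign-flip permutation test over mice, with Benjamini-Hochberg adjustment over all genes and classes. Of 134 pairs of receptor and class, 25 were above oligodendrocytes and 20 below. The higher share, 18.7%, was near the 20.2% of pairs over all genes, and the lower share was 14.9% against 24.0%. All 25 higher pairs lay beyond the counting interval of the class, whereas 12 of the 20 lower ones did not. The receptors differed in where they stood above the background, with 5 classes for Drd1, 7 for Drd2, 5 for Drd3, 1 for Drd4 and 7 for Drd5. With every nucleus thinned to 1000 UMIs, 12 of the 25 were still called, or 10.8% of the 111 receptor pairs that could then be tested, and over all genes the share above fell to 12.0%. The 13 pairs no longer called were all still higher than oligodendrocytes on average, by 0.353 to 19.4 CPM, and 8 of them by at least the difference of the unthinned counts. Among them, Drd1 in Hs3st2 nuclei was higher by 6.26 CPM (unthinned 7.91), Drd2 in Cpa6 nuclei by 19.4 (18.9), Drd3 in Otx2 nuclei by 12.6 (12.5), Drd5 in CA2 nuclei by 6.56 (3.75) and Drd5 in Gata3 and Pax3 nuclei by 0.353 (2.21). These pairs were chosen as higher in the counts from which the thinned ones were drawn, so their direction is no separate support. After thinning, a UMI was left in 5 Cpa6 nuclei for Drd2, 6 Otx2 nuclei for Drd3 and 3 CA2 nuclei for Drd5. The pairs still called were Drd1 in granule and in Gata3 and Pax3 nuclei, Drd5 in CA1 and granule nuclei, Drd2 in mossy, thalamic, interneuron and Gata3 and Pax3 nuclei, Drd3 in astrocytes, shallow mixed and Gata3 and Pax3 nuclei, and Drd4 in granule nuclei.

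**Figure D1:**
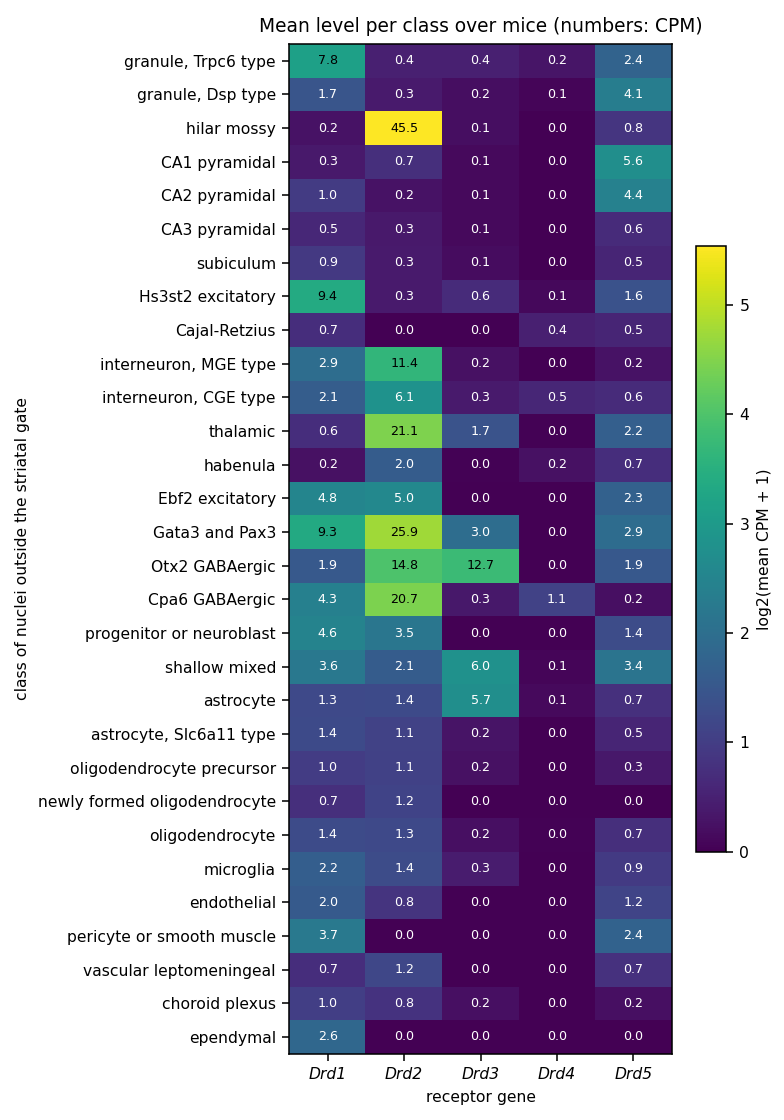
Mean level of each receptor gene (columns) in 30 classes of nuclei outside the striatal gate (rows), averaged over the mice in which the class had 10 or more nuclei; numbers are CPM and colour is log2(mean CPM + 1). Drd2 stands highest in hilar mossy nuclei (45.5 CPM), Drd5 in CA1 (5.64) and CA2 (4.44), Drd3 in Otx2 GABAergic nuclei (12.7), and Drd1 in Hs3st2 excitatory (9.39) and Gata3 and Pax3 nuclei (9.26).

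Drd1, the D1 receptor gene, was detected in dentate granule nuclei, the principal cells of the dentate gyrus, at 4.43 CPM ± 1.06 (SD, n = 15). The 6 NP mice ranged from 4.10 to 5.52 CPM with a median of 4.68, the control RE mice had 2.85, 3.11, 3.36 and 4.41 CPM, and the stress RE mice 2.83, 4.78, 4.85, 5.19 and 6.66. Granule nuclei exceeded the oligodendrocytes of their own mouse in 14 of 15 mice, by 3.01 CPM ± 1.46 (SD, exact permutation test, adjusted p = 0.000614). The exception was stress RE mouse 75, whose oligodendrocytes had the 7.28 CPM given above. A Drd1 UMI was found in 3.75% of 31106 granule nuclei (95% exact binomial interval 3.54 to 3.97%) and in 0.402% of oligodendrocytes. With every nucleus thinned to 1000 UMIs, which left out 50 granule and 474 oligodendrocyte nuclei, the shares were 0.377% and 0.167%.

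Granule nuclei formed a Dsp type and a Trpc6 type, called by the granule genes that led each cluster, and Drd1 and Drd5 differed between them in opposite directions in every mouse. Drd1 averaged 7.83 CPM in the Trpc6 type, from 5.24 to 13.2 over the mice, and 1.73 CPM in the Dsp type, from 0.486 to 4.14. The ranges did not overlap. Drd5 was lower in the Trpc6 type in 15 of 15 mice, with a mean of 2.42 against 4.09 CPM in the Dsp type and overlapping ranges. This comparison was added after the data were seen and carries no test. The Trpc6 type made up 28.03 to 80.48% of the granule nuclei of a mouse. Clustered again, the granule nuclei gave 6 sub-clusters whose Drd1 ran from 1.08 to 12.6 CPM, the highest in a small one led by Blnk, Acan and Gpnmb (335 nuclei, 54 UMIs, 95% Poisson interval 9.49 to 16.5 CPM), and Drd1 UMIs were found there in 15 of 15 mice. Such counting intervals are over nuclei of all mice and cover counting error only.

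**Figure D2:**
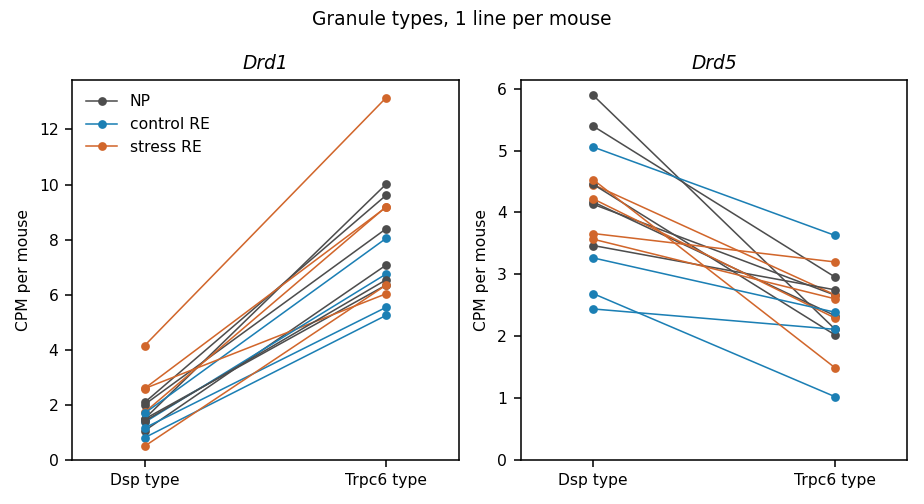
Drd1 (left) and Drd5 (right) in CPM per mouse in the Dsp type and the Trpc6 type of granule nuclei, 1 line per mouse, coloured by group. Every line rises for Drd1 (means 1.73 and 7.83 CPM) and every line falls for Drd5 (means 4.09 and 2.42 CPM).

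Besides the granule nuclei, Drd1 was above oligodendrocytes in 4 classes called by their leading genes or depth. Excitatory nuclei led by Hs3st2 had 9.39 CPM ± 6.22 (SD, n = 14), from 0 to 20.5 CPM, with a median of 8.02, and was above oligodendrocytes in 13 of 14 mice (exact permutation test, adjusted p = 0.00103). Within it and the subiculum, a sub-cluster of 202 nuclei led by Ccn2 and Cplx3, genes of the deepest cortical layer, held 38.6 CPM (31.4 to 46.8). Its level was 29.8 to 51.7 CPM in the 5 mice with at least 10 of its nuclei, and all 10 mice that had any of its nuclei had a Drd1 UMI. The cluster led by Gata3 and Pax3, transcription factor genes of GABAergic neurons outside the telencephalon, had 9.26 CPM with a range of 3.51 to 15.5 and a median of 9.44, above oligodendrocytes in 15 of 15 mice (adjusted p = 0.000377). Excitatory nuclei led by Ebf2, which reached none of the marker lists, had 4.78 CPM ± 2.16 (SD, n = 15), from 0.826 to 9.48 with a median of 4.74, above oligodendrocytes in 13 of 15 mice. The shallow mixed nuclei, which stood close to the granule and the progenitor lists, had 3.63 CPM ± 4.21 and were above in 11 of 15 mice (adjusted p = 0.0141), a call that was lost on the log2(CPM + 1) scale (adjusted p = 0.0512). The Gata3 and Pax3 nuclei had a higher level than the Ebf2 nuclei, the next class tested in the order, in 14 of 15 mice. Neighbouring classes were also set side by side over mice, for each receptor in 27 pairs, by an unadjusted exact permutation test. The classes were ranked on the same values, so the direction of most pairs was set before the test. Some ran against the order in the mice they shared, such as Cpa6 minus pericyte nuclei for Drd1 (-2.64 CPM, 7 mice). Of 135 pairs, 8 had a p under 0.05, with 1 for Drd1, 3 for Drd2, 4 for Drd3 and 0 for Drd4 and Drd5. Chance alone gives some at such a threshold, and pairs of classes that both had 0 CPM could not differ. The order is therefore a description, and most neighbours in it did not differ beyond the spread over mice.

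The classes that follow were not called above the oligodendrocyte level of Drd1. Interneurons had 2.61 CPM ± 1.53 (SD, n = 15), from 0.380 to 6.63, higher than oligodendrocytes in 13 of 15 mice but short of the threshold (exact permutation test, adjusted p = 0.0772). Their MGE type averaged 2.92 CPM and their CGE type 2.10, with the MGE type higher in 12 of 15 mice. The level was uneven, from 0 to 8.40 CPM over 14 interneuron sub-clusters made after the data were seen and given without a test. CA1 nuclei had 0.297 CPM ± 0.242, CA3 nuclei 0.532 ± 0.614 and habenular nuclei 0.194 ± 0.433 (n = 12), each lower than oligodendrocytes. Mossy nuclei held 1 Drd1 UMI in 339 nuclei and thalamic nuclei 0.644 CPM ± 0.604. The progenitor or neuroblast cluster, led by Dlx1 and Top2a, had 6 Drd1 UMIs in 436 nuclei, and its 9 mice with at least 10 nuclei ranged from 0 to 15.2 CPM around a median of 4.43. Of those 9, 4 were above and 5 below their oligodendrocytes (exact permutation test, adjusted p = 0.322). This cluster also scored 3.76 on the general GABAergic list. Neuroblast-like nuclei led by Igfbpl1 and Draxin lay in the shallow mixed cluster, so the progenitor values and group tests do not cover them.

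Drd5, the D5 receptor gene, was above the background in CA1, CA2 and granule nuclei. CA1 pyramidal nuclei had 5.64 CPM ± 1.67 (SD, n = 15). The NP mice ranged from 3.78 to 8.91 with a median of 6.66, the control RE mice had 2.67, 5.35, 5.92 and 5.99 CPM, and the stress RE mice 2.90, 4.50, 5.64, 6.06 and 6.65. All 15 mice were above their oligodendrocytes, by 4.95 CPM ± 1.68 (exact permutation test, adjusted p = 0.000377). A Drd5 UMI was seen in 8.08% of 5708 CA1 nuclei (7.38 to 8.81%), against 0.178% of oligodendrocytes, and after thinning in 0.649% and 0.0715%. The median CA1 nucleus had 13453 UMIs.

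CA2 nuclei, which lie between CA1 and CA3, had 4.44 CPM ± 3.37 of Drd5, from 0 to 12.7 with a median of 4.14, and were above oligodendrocytes in 14 of 15 mice (adjusted p = 0.000614). CA3 nuclei had 0.593 CPM ± 0.285, from 0.193 to 1.11 and below the range of CA1, which did not differ from oligodendrocytes beyond the spread over mice (adjusted p = 0.714). The granule nuclei had 3.29 CPM ± 0.675. Drd5 was above oligodendrocytes in 15 of 15 mice there, by 2.61 CPM ± 0.894 (adjusted p = 0.000377). NP mice ranged from 3.09 to 4.28 CPM with a median of 3.27, control RE mice had 1.72, 2.33, 2.92 and 4.45, and stress RE mice 3.18, 3.37, 3.46, 3.68 and 3.70.

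Thalamic nuclei had 2.20 CPM ± 1.77 of Drd5 (n = 15), higher than oligodendrocytes in 14 of 15 mice. Their NP values ran from 1.63 to 2.59 CPM around a median of 1.97, and the control RE mice had 0.831, 1.54, 1.82 and 3.81. Stress RE mice had 0.825, 1.05, 1.22, 1.82 and 8.00 CPM, the last from mouse 77 with 14 UMIs in 104 nuclei. Gata3 and Pax3 nuclei (2.90 CPM ± 2.63), Ebf2 nuclei (2.30 ± 1.67) and the cluster of shallow mixed nuclei (3.39 ± 2.18, median 1388 UMIs per nucleus) were also above oligodendrocytes. Over the mice, the Gata3 and Pax3 nuclei ran from 0 to 11.2 CPM around a median of 2.61, and the shallow mixed nuclei from 0 to 6.48 around 3.13. When the Gata3 and Pax3, Otx2 and Cpa6 nuclei were clustered again, a sub-cluster led by Mecom, Ebf3 and Col8a1 held 13.6 CPM (193 nuclei, 27 UMIs, 8.99 to 19.8). Interneurons (0.363 CPM ± 0.508) and mossy nuclei (0.799 ± 1.22, n = 12) did not exceed oligodendrocytes, and the progenitor cluster had 3 Drd5 UMIs, with 2 of 9 mice above oligodendrocytes.

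Drd2, the D2 receptor gene, had its highest class level in hilar mossy nuclei, the excitatory neurons of the dentate hilus. The class had 45.5 CPM ± 16.6 (SD, n = 12), and 41.9% of its 339 nuclei held a Drd2 UMI (36.6 to 47.3%), against 0.385% of oligodendrocytes. After thinning the shares were 2.96% and 0.157%. Among mice with at least 10 mossy nuclei, 4 NP mice had 34.1, 34.5, 48.9 and 72.6 CPM, 4 control RE mice 25.3, 44.1, 51.0 and 60.5, and 4 stress RE mice 28.1, 34.4, 37.1 and 75.2. All were above oligodendrocytes, by 43.9 CPM ± 16.3 (exact permutation test, adjusted p = 0.00178), and the ranges of the groups overlapped. When the CA3 and mossy nuclei were clustered again, a sub-cluster of 216 nuclei led by Csf2rb2 held 327 Drd2 UMIs, at 71.9 CPM (64.3 to 80.1), and the others 0 to 5 UMIs each. It is smaller than the mossy class of 339 nuclei, whose pooled level was 45.8 CPM, and it too scored higher on the CA3 list, with 3 of 7 mossy markers detected. The level of mossy nuclei was higher than that of Gata3 and Pax3 nuclei, the next class, in 10 of 12 mice. Further down the order, Otx2 nuclei had more than interneurons in 10 of 14 mice and interneurons more than Ebf2 nuclei in 13 of 15.

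Granule, CA1 and CA3 nuclei had no Drd2 above the background. Granule nuclei had 0.368 CPM ± 0.304, lower than oligodendrocytes in 13 of 15 mice, and a Drd2 UMI in 0.299% of nuclei. CA1 nuclei had 0.680 CPM ± 1.09 and CA3 nuclei 0.296 ± 0.283. In UMIs, mossy nuclei held 1 Drd1 UMI beside 327 of Drd2, and granule nuclei 1270 beside 97.

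Interneurons had 9.42 CPM ± 2.51 of Drd2 (SD, n = 15), above oligodendrocytes in 15 of 15 mice, by 8.08 CPM ± 2.93 (adjusted p = 0.000377). NP mice ranged from 9.00 to 13.3 CPM with a median of 10.9, control RE mice had 5.55, 6.14, 11.4 and 12.8, and stress RE mice 5.50, 6.96, 8.81, 9.12 and 9.23. The MGE type, with Lhx6, averaged 11.4 CPM and the CGE type, with Npas1 and Vip, 6.07, and the MGE type was higher in 13 of 15 mice. Within interneurons the level was uneven. Of 14 sub-clusters, a pair stood out, led by Elfn1 and Pappa (35.8 CPM, 29.9 to 42.7, 180 nuclei) and by Sst (30.4 CPM, 23.2 to 39.2, 143 nuclei), the gene of the peptide somatostatin. A sub-cluster led by Tll1 held 1 UMI in 264 nuclei and the Vip-led sub-cluster 2 in 193. The Elfn1 and Pappa nuclei held 0 UMIs of Drd1, which allows up to 0.853 CPM (3 counts). These sub-clusters were made after the data were seen, and their values are given without a test.

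Thalamic nuclei had 21.1 CPM ± 6.55 of Drd2 (n = 15) and exceeded oligodendrocytes in every mouse, by 19.7 CPM ± 6.73 (adjusted p = 0.000377). NP mice were close together, from 16.4 to 20.2 CPM with a median of 18.9, as were control RE mice with 19.4, 20.2, 20.9 and 22.6. Stress RE mice had 11.9, 18.1, 19.8, 32.7 and 38.9 CPM. The 2 highest of these, mice 70 and 77, had the fewest thalamic nuclei, 166 and 104. The highest sub-cluster had 37.8 CPM (33.9 to 42.1, 526 nuclei), a sub-cluster led by Vipr2 and Tafa4 7.45 CPM (5.57 to 9.77, 466 nuclei), and the smallest 0 UMIs in 55 nuclei. A Drd2 UMI was present in 1342 of 6620 thalamic nuclei.

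Of the classes called by their leading genes, Gata3 and Pax3 nuclei had 25.9 CPM ± 18.4 of Drd2, Cpa6 GABAergic nuclei 20.7 ± 12.5 (n = 7), Otx2 GABAergic nuclei 14.8 ± 9.29 (n = 14) and Ebf2 nuclei 5.02 ± 2.48. The Gata3 and Pax3 nuclei ranged from 18.01 to 82.6 CPM in NP mice with a median of 19.9, had 13.6, 16.1, 21.5 and 26.1 CPM in control RE mice and 2.81, 14.0, 30.5, 37.9 and 41.5 in stress RE mice. The Cpa6 nuclei ran from 8.77 to 36.0 CPM around a median of 13.3, and the Otx2 nuclei from 0 to 30.8 around 15.2. All 4 classes were above oligodendrocytes, the Cpa6 nuclei in 7 of 7 mice, by 18.9 CPM ± 11.6 (SD, exact permutation test, adjusted p = 0.0364). The Cpa6 cluster scored 3.67 on the general GABAergic list and next, at 2.79, on the striatal-type list, and 80 of its 456 nuclei were in the gate. Whether its nuclei outside the gate include striatal-type neurons was not tested. When the Gata3 and Pax3, Otx2 and Cpa6 nuclei were clustered again, 390 Drd2 UMIs lay in 178 nuclei led by Tfap2b, Tmem132c and Reln, at 198.4 CPM (179.2 to 219.1), and the other sub-clusters held 0 to 116 each. These nuclei held 229.0 CPM of Slc17a6, the vesicular glutamate transporter of subcortical neurons, and 14.2 CPM of Gad2, a GABA-synthesizing enzyme, which goes against a GABAergic name for them. All 14 mice with such nuclei had Drd2 UMIs, and the 8 mice with at least 10 of them ranged from 118.2 to 219.0 CPM. Pooled within groups, NP mice had 201.1 CPM, control RE mice 209.7 and stress RE mice 186.9. The progenitor cluster had 8 Drd2 UMIs, 5 of them in NP mouse 35, and 3 of 9 mice were above oligodendrocytes (adjusted p = 0.690).

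Drd3, the D3 receptor gene, was low in the hippocampal neurons and stood above the background in astrocytes, in thalamic nuclei and in GABAergic nuclei led by Otx2. Otx2 GABAergic nuclei had 12.7 CPM ± 8.75 (SD, n = 14), from 0 to 30.8 with a median of 11.7, above oligodendrocytes in 13 of 14 mice (exact permutation test, adjusted p = 0.00103). Astrocytes had 5.67 CPM ± 4.36 (n = 15) and were above in 14 of 15 mice (adjusted p = 0.000614). Their NP mice ranged from 0 to 7.65 CPM, the control RE mice had 1.31, 2.12, 4.38 and 6.43, and the stress RE mice 1.45, 8.97, 9.70, 10.5 and 15.9, each from 18 UMIs or fewer. The Slc6a11 type of astrocytes, a separate cluster, had 0.232 CPM ± 0.570 and did not exceed oligodendrocytes. Gata3 and Pax3 nuclei had 2.97 CPM ± 1.96, thalamic nuclei 1.67 ± 0.765 and shallow mixed nuclei 5.98 ± 6.81, all above oligodendrocytes. The Gata3 and Pax3 nuclei ranged from 0 to 7.11 CPM with a median of 2.58, and the shallow mixed nuclei from 0 to 22.7 with a median of 3.02.

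The Drd3 UMIs of astrocytes and of the shallow mixed nuclei came mostly from small sub-clusters, described here without a test. Among astrocytes, 84 UMIs were in 446 nuclei led by Otc, Gli3 and Lama2, at 50.5 CPM (40.3 to 62.5), and 30 in 405 nuclei led by Thbs4, Egfr and Top2a, at 23.5 CPM (15.9 to 33.6). Egfr and Top2a are genes of activated stem cells and of dividing cells. The first had Drd3 UMIs in 14 of 15 mice and pooled levels of 45.9 CPM (NP), 40.3 (control RE) and 62.7 (stress RE). In the shallow mixed cluster, 36 of 38 UMIs came from neuroblast-like nuclei led by Igfbpl1 and Draxin, at 16.8 CPM (11.7 to 23.2, 497 nuclei). The other neuroblast-like nuclei, led by Dlx6os1 and Dlx1, had 0 UMIs in 441 nuclei, which allows up to 1.96 CPM (3 counts). In thalamic nuclei, 150 of the UMIs lay in a sub-cluster led by Necab1 and Pth2r, at 16.0 CPM (13.5 to 18.8, 660 nuclei, 14 of 15 mice).

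In the neurons of the dentate gyrus and hippocampus Drd3 was low. Granule nuclei had 0.280 CPM ± 0.243, CA1 nuclei 0.0976 ± 0.211, interneurons 0.222 ± 0.285 and mossy nuclei 1 UMI in 339 nuclei, none of them above oligodendrocytes. In thalamic nuclei the NP mice ranged from 1.48 to 2.74 CPM with a median of 2.17, the control RE mice had 0.498, 1.27, 1.78 and 2.31, and the stress RE mice 0, 0.728, 1.86, 1.87 and 2.06.

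Drd4, the D4 receptor gene, was close to the limit of detection in all classes. Oligodendrocytes held 2 Drd4 UMIs and had 0 CPM in 13 of 15 mice, so that any UMI of a class made it higher there. Granule nuclei were the single class above oligodendrocytes, with 40 UMIs in 31106 nuclei and 0.146 CPM ± 0.0909 (SD, n = 15), higher in 13 mice and lower in 1 (exact permutation test, adjusted p = 0.00814). Their NP mice ranged from 0 to 0.259 CPM, the control RE mice had 0, 0.0839, 0.137 and 0.222, and the stress RE mice 0.0974, 0.156, 0.165, 0.235 and 0.278. Of the 40 UMIs, 30 were in the Trpc6 type, in which the level was higher than in the Dsp type in 12 mice and lower in 1. Levels at or above that of granule nuclei were also found in Cpa6 nuclei (1.12 CPM ± 2.38, n = 7), Cajal-Retzius nuclei (0.401 ± 1.55, n = 15), interneurons (0.188 ± 0.470, n = 15) and habenular nuclei (0.185 ± 0.457, n = 12). These rest on 2, 1, 6 and 3 UMIs, with a median of 0 CPM over the mice and highest values of 6.37, 6.02, 1.81 and 1.58 CPM. None of these 4 was above oligodendrocytes (exact permutation test, adjusted p of 0.649, 1, 0.217 and 0.541). CGE-type interneurons had 6 UMIs in 1062 nuclei, 4 of them in the 193 nuclei led by Vip, and MGE-type interneurons 0 CPM in every mouse. Mossy and progenitor nuclei had 0 UMIs, CA1 nuclei 2 and thalamic nuclei 3.

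Nuclei with UMIs of both members of a pair were few. Of 31106 granule nuclei, 1167 held Drd1, 945 Drd5 and 38 both. Among thalamic nuclei, 1342 held Drd2, 172 Drd5 and 55 both, and 18 held Drd2 with Drd3. In Gata3 and Pax3 nuclei, 279 held Drd1, 434 Drd2 and 36 both. Most nuclei of a class had no UMI of any receptor, so these counts do not show which nuclei lack a receptor. Over the 30 classes the Pearson correlations of log2(CPM + 1) between the receptors ran from -0.07 (Drd4 with Drd5) to 0.29 (Drd2 with Drd3), as a description of classes that share libraries.

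The group comparisons asked whether reproductive experience (control RE minus NP) and postpartum stress (stress RE minus control RE) were followed by another receptor level within a class. Counts were summed per mouse and class and fitted with edgeR over all genes. None of the 9 receptor and class pairs tested passed an adjusted p of 0.05 in either contrast. The same held for all genes of each of the 6 classes, 0.0% of 3782 to 16728 genes, with 79 to 519 genes per class at an unadjusted p under 0.05 for control RE minus NP and 127 to 242 for stress RE minus control RE. DESeq2 called 0 receptors as well, and 1 other gene, in progenitor nuclei for stress RE minus control RE. There edgeR also called 1 gene with DESeq2's size factors and 1 with batch as a term, and with 1 mouse left out it called 0 to 2 genes in a class. Without the filter on low counts, edgeR called 21 of 20533 genes in mossy nuclei for control RE minus NP (12 higher, 9 lower) and 11 for stress RE minus control RE, and 3 of 17525 in progenitor nuclei for the latter, with 0 receptors among them. The 2 contrasts share the control RE mice.

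The smallest unadjusted p-values were those of Drd1 in granule nuclei. NP mice averaged 4.72 CPM ± 0.514 (SD, n = 6), control RE mice 3.43 ± 0.682 (n = 4) and stress RE mice 4.86 ± 1.37 (n = 5). Control RE mouse 66 (4.41 CPM) reached into the NP range, and stress RE mouse 90 (2.83 CPM) lay below all control RE mice. The log2 fold change was -0.40 for control RE minus NP (standard error 0.18, unadjusted p = 0.0395, adjusted p = 0.986 by edgeR) and 0.47 for stress RE minus control RE (standard error 0.19, unadjusted p = 0.0225, adjusted p = 1 by edgeR). Within batch 2 the values were -0.61 and 0.41, and within batch 3 -0.14 and 0.48. In the Trpc6 type alone they were -0.28 and 0.43, and in the Dsp type -0.29 and 0.78. For control RE minus NP, each type's value was smaller in size than the pooled -0.40. For stress RE minus control RE, the pooled 0.47 lay between them. The Trpc6 type, with more Drd1, made up 37.70, 42.29, 46.74, 57.57, 58.45 and 80.48% of granule nuclei in NP mice. It made up 32.18, 40.28, 45.63 and 60.98% in control RE mice and 28.03, 40.57, 42.59, 42.94 and 67.57% in stress RE mice. The part of this mix in the pooled values was not tested. The Drd1 level of oligodendrocytes ranged from 0.209 to 3.30 CPM in NP mice, the highest being mouse 35. It was 0.171, 0.221, 0.536 and 1.09 CPM in control RE mice and 0.351, 0.693, 1.04, 2.12 (mouse 77) and 7.28 (mouse 75) in stress RE mice. Its part in the granule contrasts was not tested.

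Drd5 in granule nuclei gave log2 fold changes of -0.22 (standard error 0.20) and 0.28 (0.20). In CA1 nuclei Drd5 gave -0.26 (0.23) and 0.08 (0.24). Drd2 in mossy nuclei averaged 47.5 CPM ± 18.1 for NP, 45.2 ± 14.9 for control RE and 43.7 ± 21.3 for stress RE (n = 4 each) and gave 0.13 (0.32) and -0.08 (0.30). Drd2 in interneurons gave -0.22 (0.25) and -0.18 (0.25), and in thalamic nuclei 0.21 (0.23) and 0.13 (0.24). Thalamic Drd3 gave -0.42 (0.41) and 0.06 (0.43) and thalamic Drd5 -0.04 (0.50) and -0.08 (0.54), the last at -0.74 without stress RE mouse 77. For mossy Drd2 in control RE minus NP and for thalamic Drd3 and Drd5 in stress RE minus control RE, the fitted sign was the opposite of that of the difference between the group means over mice. These errors leave room for changes of moderate size in either direction. Drd2 in granule nuclei, which lay below oligodendrocytes, gave -1.06 (0.67) and 0.43 (0.72) from 97 UMIs. The remaining 21 pairs of receptor and class had too few counts for the fit and were tested on their CPM with exact permutation tests over mice. Of these 42 tests, 0 had an unadjusted p under 0.05, and the smallest was 0.1. The 5 progenitor tests of control RE minus NP, with 3 and 2 mice, cannot give a p below 0.1.

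**Figure D3:**
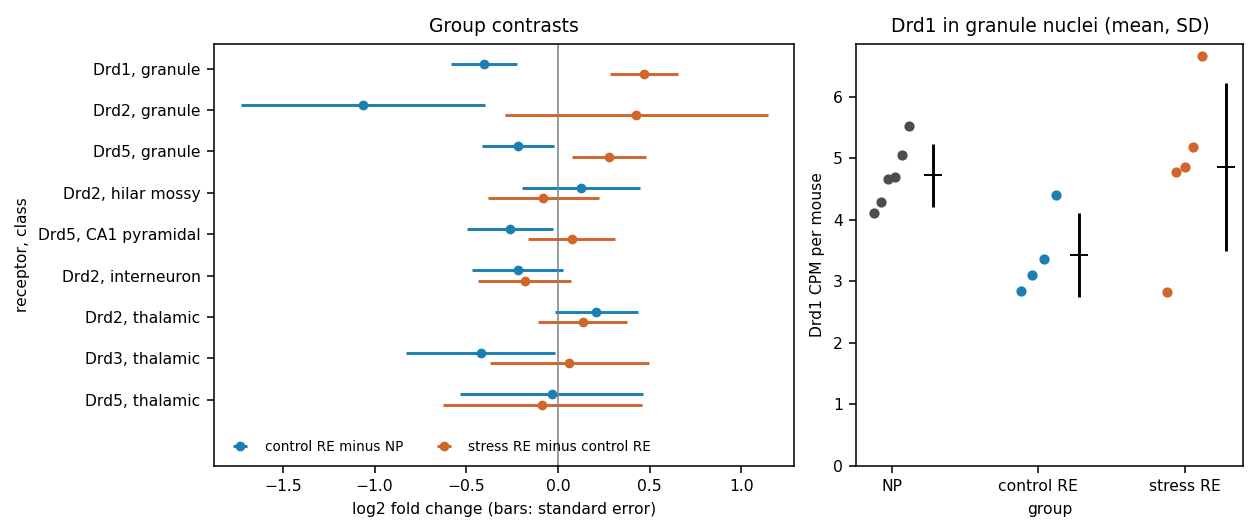
Left, log2 fold changes with standard errors from edgeR for 9 pairs of receptor and class, control RE minus NP in blue and stress RE minus control RE in orange; right, Drd1 CPM of granule nuclei per mouse with mean and SD by group. Drd1 in granule nuclei has -0.40 and 0.47, and the stress RE mice span 2.83 to 6.66 CPM, across the values of all control RE mice (2.85 to 4.41).

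Of 29 listed genes of dopamine receptor signalling (G protein subunits, adenylyl cyclases, the phosphoprotein gene Ppp1r1b and others), 16 to 29 could be tested in a class, and 0 were higher and 0 lower in any class or contrast by edgeR, against the 0.0% of all genes. In granule nuclei the median log2 fold change of the list was -0.08 for control RE minus NP (all genes 0.01) and 0.03 for stress RE minus control RE (all genes -0.02). The genes of the list with the largest values in granule nuclei for control RE minus NP were Ppp1r1b (-0.59, standard error 0.49), Akt1 (-0.32), Caly (-0.24) and Gnas (-0.21). For stress RE minus control RE they were Ppp1r1b (1.33, standard error 0.50, unadjusted p = 0.0174, adjusted p = 1 by edgeR), Caly (0.31), Gnas (0.23) and Adcy8 (0.20). Ppp1r1b is abundant in striatal projection neurons, and stress RE mice 75 and 77 held 829 and 245 nuclei of the striatal-type cluster against 0 to 92 in the control RE mice. The part of free RNA in its value was not tested.

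Among 17848 genes with at least 5 CPM in some class, those most like each receptor over the 30 classes were found by the Pearson correlation of log2(CPM + 1), given as a description. For Drd1 they were Ftl1-ps1 (r = 0.69), Ipcef1, Atp2b4, Gm15155 and Igip, and for Drd5 Gba2 (0.73), Kcna4, Gm20754, Tmem150c and Mfsd4a. Drd2 was most like Pip5kl1 (0.80), Lin28b, Grin2d, A530058N18Rik and Camk2n2, and Drd3 most like Gm47757 (0.73), Gm32884, Dmbx1, Repin1 and Sox14, all of which stood highest in Otx2 GABAergic nuclei. For Drd4 they were Ecel1 (0.78), Slc2a13, Myl1, Yjefn3 and Dnah17, from a receptor with few UMIs.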

How the data were processed

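Nuclei of dHF micropunches from 15 mice were sequenced with 10x Chromium 3′ chemistry. The authors deposited whole-number UMI counts per barcode and gene, aligned to mm10 with Cell Ranger (7.1.0 in the processing notes, which also list GRCm39; the file headers name an earlier version). The deposited counts carry no correction for free RNA or doublets. Groups and batches came from the labels.

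Barcodes needed at least 200 genes and a mitochondrial share of at most 5%, and the highest Scrublet scores (scanpy 1.11.5) were removed at 0.8% per 1000 barcodes. Clusters came from 2000 variable genes, 30 components, 15 neighbours and Leiden resolution 1 (igraph 0.11.9, Python 3.11.15), without joining libraries. Names needed at least 3 detected markers (at least 5 CPM and 2-fold the median cluster) and a mean log2 fold of 2, or 1.5 with a marker among the 10 leading genes, thresholds set after the clusters were seen. Sub-clusters of at least 50 nuclei, made after the data were seen, used 1000 genes, 20 components and resolution 0.5. The receptors and all lists were chosen with earlier results of these data known.

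Classes with at least 10 nuclei in a mouse entered the tests, over at least 6 mice against oligodendrocytes. Adjustment over the whole table of genes and classes replaced the planned one over the receptors, and p-values of neighbouring classes and of low-count pairs are unadjusted. Groups were tested with edgeR 4.0.16 (quasi-likelihood, filterByExpr, TMM, all groups in 1 fit, R 4.3.3), with DESeq2 1.42.0 as an alternative. Both kinds of test were run on simulated data. The changed genes there mostly had more counts than the sparser receptor pairs, and the background test was simulated at equal depth. The simulations therefore do not cover sparse pairs or unequal depths. Classes are named where they are among the 5 highest for a receptor or 1 of the 6 classes compared between groups, and a range or a mean and SD over mice stands for the values per mouse in classes not compared between groups or not above oligodendrocytes. Listed signalling genes are named where called, or else the 4 largest changes in granule nuclei, and 5 genes are named as most like each receptor. Intervals (95%) cover counting error only, and a count of 0 allows 3. Alternatives covered the scale, doublets, marker UMIs, the gate, thinning, another background class, size factors, the count filter, batch and each mouse left out.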

Additional observations from a re-analysis of the deposited data

Results flagged for a closer look

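Thalamic Drd5 of stress RE mouse 77, at 8.00 CPM, lay far from the other stress RE mice (0.825 to 1.82 CPM). It rests on 14 UMIs in 104 thalamic nuclei, the fewest of any mouse, and was 1 of 27 groups of mice examined for such a value, of which chance alone flags about 1 in 20. Without that mouse, the thalamic Drd5 contrast of stress RE minus control RE was the lowest of all values with a mouse left out, at -0.74 on the log2 scale against -0.08 with it.

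Of the 3239 nuclei that the striatal gate set aside, 1417 lay outside the striatal-type cluster, in 8 classes with at least 50 of them and in smaller numbers elsewhere. Of these, 80 lay in the Cpa6 GABAergic cluster. They had 100.6 CPM of Drd1 (96 UMIs) and 44.0 CPM of Drd3 (42 UMIs), above the 1.52 and 0.184 CPM of oligodendrocytes, with 6.29 CPM of Drd2. The 376 nuclei of the same cluster outside the gate had 6.25 CPM of Drd1, 0.647 of Drd3 and 25.7 of Drd2. The 371 gated thalamic nuclei had 18.9 CPM of Drd2 and 6.39 of Drd3, against 19.3 and 1.82 pooled over those outside the gate. The 261 gated Gata3 and Pax3 nuclei had 9.93 CPM of Drd1 and 23.5 of Drd2 (7.68 and 21.2 outside the gate), and the 142 gated MGE-type interneurons 8.85 and 12.5 (2.95 and 11.2). Gated nuclei entered the comparisons only where the gate was not used, which gave 27 pairs above oligodendrocytes and 20 below.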

How the results depend on the processing

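The number of pairs of receptor and class above oligodendrocytes was 25, was 24 to 25 with each mouse left out, and stayed within 1.5 times under the alternatives run over all mice except thinning to 1000 UMIs, which left 12 of 111 pairs tested. The other 13 stayed higher on average, by 0.353 to 19.4 CPM. The thinned counts were drawn from those in which the pairs were called, so this is no separate support. With microglia as the background 24 of 115 pairs (20.9%) were above and 12 (10.4%) below it, against 25 (18.7%) and 20 (14.9%) of 134 with oligodendrocytes, and over all genes 17.6% and 28.7% against 20.2% and 24.0%. Drd2 in Cpa6 nuclei stayed higher by 16.5 to 20.8 CPM without any 1 of 7 mice, where the 6 that remain allow no p under 0.03125 before adjustment, so that test says nothing of its stability. Drd1 in shallow mixed nuclei lost it on the log2(CPM + 1) scale (adjusted p = 0.0512) and against microglia (0.212, also with thinning). No library had fewer than 5 nuclei in the striatal gate, so the test in mice with fewer could not be run. In the 7 mice with fewer than 5 nuclei of the striatal-type cluster, chosen after seeing the data, 23 of the pairs had a value. All 23 were higher than oligodendrocytes on average and 16 in every mouse, with 0 calls over the whole table, as 7 mice allow no p under 0.0156. These mice are among those in which the pairs were called as higher, so the direction is no separate support.

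No alternative called a receptor between groups. Log2 fold changes with the other sign than in the text were all of uncalled pairs, and the cause was not tested. For control RE minus NP, they were 0.010 within batch 3 for Drd2 in granule nuclei, -0.023 (no doublet removal) and -0.016 (batch 2) for Drd2 in mossy nuclei, 0.23 within batch 2 for Drd2 in interneurons, and 0.0081 (DESeq2), 0.14 (no doublet removal) and 0.43 (batch 2) for thalamic Drd5. For stress RE minus control RE, they were 0.10 (no doublet removal), 0.11 (gate not used) and 0.18 (batch 2) for Drd2 in mossy nuclei, -0.022 within batch 2 for Drd5 in CA1, 0.18 (gate not used) and 0.28 (batch 3) for Drd2 in interneurons, -0.46 within batch 3 for thalamic Drd2, -0.23 within batch 2 for thalamic Drd3, and 0.091 (DESeq2) and 0.11 (batch 2) for thalamic Drd5. With each mouse left out, control RE minus NP ran from -0.015 to 0.31 for mossy Drd2 and -0.46 to 0.19 for thalamic Drd5, and stress RE minus control RE from -0.49 to 0.086 for mossy Drd2, -0.35 to 0.048 for interneuron Drd2, -0.0505 to 0.33 for thalamic Drd2, -0.19 to 0.38 for thalamic Drd3, -0.045 to 0.15 for CA1 Drd5 and -0.74 to 0.35 for thalamic Drd5. Signs were kept by Drd1 in granule nuclei (-0.53 to -0.32 and 0.36 to 0.62), granule Drd5 (-0.49 to -0.057 and 0.13 to 0.55) and granule Drd2 (-1.48 to -0.87 and 0.23 to 0.86). For control RE minus NP, they were also kept by interneuron Drd2 (-0.45 to -0.038), thalamic Drd2 (0.17 to 0.24), thalamic Drd3 (-0.75 to -0.17) and CA1 Drd5 (-0.34 to -0.14). With batch as a term, 0 receptors were called and every sign was as in the text (Drd1 in granule nuclei -0.38 and 0.44). Mice of different groups share no number, so they could not be paired within a batch.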
